A study of Mus musculus with 12 samples.

Results

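Interferon-stimulated genes and the genes that cut, carry and load peptides for MHC class I were followed in mouse femoral head cartilage that was left untreated or exposed to interleukin-1α (IL-1α) or retinoic acid. The set was a list of 39 symbols, and a member was a gene whose symbol in the probe table equalled one of them. The rule used no measured value, although the list was drawn up with earlier results of these data known. Of the 39, 35 had a probe of that symbol among the 34509 symbols of the array, 25 were detected on at least 4 of the 12 arrays and could be tested, 19 were detected on all 12, and 7 were detected on none. Isg15, Usp18, Irf9 and Oas1a had no probe of that symbol, so their RNA was not analysed here. The promoters of Isg15, Irf9 and Oas1a are among those counted below.

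Interferons bind cell surface receptors whose Janus kinases activate STAT transcription factors, which enter the nucleus and switch on the interferon-stimulated genes at elements known as the interferon-stimulated response element (ISRE) and the gamma-activated site (GAS). Among the products are antiviral enzymes, guanylate-binding GTPases, the immunoproteasome subunits that replace the constitutive catalytic subunits of the proteasome, and the TAP transporter that moves the resulting peptides into the endoplasmic reticulum, where tapasin loads them onto class I molecules held together by beta-2 microglobulin. Some of these genes, Irf1 and Tap1 among them, are also known to respond to inflammatory signals other than interferon.

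All 12 arrays came from femoral head explants of 21-day-old TS-4/5Δcat mice, which lack the catalytic activity of the aggrecanases ADAMTS-4 and ADAMTS-5, so that controls and treated explants carried the same alleles and no wild-type cartilage was measured. Hips were cultured at 4 per well, for 24 h in serum-containing medium, and then kept untreated or exposed for 3 days to IL-1α (10 ng/mL) or retinoic acid (10 µM). Each treatment had 4 arrays, 2 in batch 1 (the line named Donut) and 2 in batch 2 (the line named Gertrude), so that line and batch cannot be told apart. The labels do not say which arrays came from separate mice, and a methods description of 3 mice per treatment does not match 4 arrays, so the p-values measure the spread between arrays, which may be technical.

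Values below are normalized log2 intensities of one probe per gene, where 1 unit is a doubling, and differences are log2 fold changes with their standard error (SE) from 1 fit over the 12 arrays with a block for batch and replicate number. A difference was called at an adjusted p below 0.05. Levels of different genes are not set against each other, because probes differ in brightness for the same amount of RNA. The tissue is a mixture of cells, and fewer cells of one type cannot be told apart from less RNA per cell. Between 13786 and 14965 probes were detected per array in batch 1 and between 16732 and 19485 in batch 2, which limits the dim members in batch 1. Normalized values of arrays of the same treatment and batch correlated across probes at 0.983 to 0.995, against 0.868 to 0.902 for the same treatment in the other batch. Of the marker genes of cartilage, 7 of 8 with a probe were tested. All 7 were lower with retinoic acid than untreated (18.1% of all genes were called lower). With IL-1α 5 of the 7 were lower than untreated (71.4%, against 15.0% of all genes). The 4 marker genes of retinoic acid action that were checked were all higher with retinoic acid than untreated (18.6% of all genes were called higher). Of 4 marker genes of IL-1α action, 3 were tested, and 2 were higher with IL-1α than untreated (66.7%, against 15.1% of all genes). That difference depended on batch for 0 of the 3 (4.57% of all genes). Cyp26a1 and Nos2, 1 from each list, were detected only with retinoic acid and only with IL-1α, in turn.

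Promoter sequence is shown for 6 members because their different responses, described below, can be set beside the response elements named above. The letters are the 250 bases before the annotated start, from RefSeq on GRCm38.p6, written in the direction of the gene. Capitals mark matches, on either strand, to ISRE (GAAA, any 2 bases, GAAA) or GAS (TTC, any 3 bases, GAA).
Tap1, chr17:34187306-34187555, plus strand: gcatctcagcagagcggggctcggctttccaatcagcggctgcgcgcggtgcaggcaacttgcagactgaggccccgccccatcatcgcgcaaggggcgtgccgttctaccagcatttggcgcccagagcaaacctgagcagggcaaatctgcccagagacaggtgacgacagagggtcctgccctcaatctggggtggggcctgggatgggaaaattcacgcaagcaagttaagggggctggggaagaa
Psmb8, chr17:34197945-34198194, plus strand: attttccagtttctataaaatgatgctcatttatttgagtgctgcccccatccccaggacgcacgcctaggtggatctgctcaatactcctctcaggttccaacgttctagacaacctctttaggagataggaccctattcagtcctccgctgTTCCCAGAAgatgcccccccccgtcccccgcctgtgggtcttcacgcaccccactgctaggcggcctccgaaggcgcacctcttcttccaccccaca
Psmb10, chr8:105938393-105938642, minus strand: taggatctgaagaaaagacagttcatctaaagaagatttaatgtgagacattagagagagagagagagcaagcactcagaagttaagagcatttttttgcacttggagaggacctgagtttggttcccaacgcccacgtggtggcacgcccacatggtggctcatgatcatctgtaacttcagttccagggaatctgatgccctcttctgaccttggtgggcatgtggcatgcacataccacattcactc
Irf1, chr11:53769764-53770013, plus strand: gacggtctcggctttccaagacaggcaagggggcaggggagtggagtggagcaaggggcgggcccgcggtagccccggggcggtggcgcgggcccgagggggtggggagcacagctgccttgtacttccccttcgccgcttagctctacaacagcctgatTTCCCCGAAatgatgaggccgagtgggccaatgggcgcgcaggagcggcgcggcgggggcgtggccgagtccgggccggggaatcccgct
Igtp, chr11:58199306-58199555, plus strand: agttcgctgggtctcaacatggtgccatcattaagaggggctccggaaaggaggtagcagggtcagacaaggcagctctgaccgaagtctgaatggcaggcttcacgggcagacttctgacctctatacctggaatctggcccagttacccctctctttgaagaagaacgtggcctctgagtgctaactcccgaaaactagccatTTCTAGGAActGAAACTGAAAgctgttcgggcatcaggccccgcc
Ifit1, chr19:34640639-34640888, plus strand: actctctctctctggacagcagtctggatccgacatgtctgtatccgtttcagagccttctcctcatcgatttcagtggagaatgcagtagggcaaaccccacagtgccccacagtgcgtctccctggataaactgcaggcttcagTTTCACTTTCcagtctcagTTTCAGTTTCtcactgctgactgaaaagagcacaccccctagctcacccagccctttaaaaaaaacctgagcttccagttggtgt
The Tap1 window is also most of the Psmb9 promoter, since both genes start 225 bases apart on opposite strands and point away from each other. It held no match to either element with these letters, and neither did the Psmb10 window. Psmb8 and Irf1 held 1 GAS match each, and Igtp held an ISRE beside a GAS match. Ifit1, which is among several antiviral members detected on no array, held 2 ISRE matches. Among the 32 members with a promoter in the RefSeq table, 13 (40.6%) held an ISRE match, against 3.46% of the 27025 genes with a promoter. A GAS match was held by 8 of the 32 members (25.0%), against 8.13% of all genes. Of the 22 such members that were tested, 8 (36.4%) held an ISRE match and 7 (31.8%) a GAS match. A looser kappaB motif (GGG, any 5 bases, CC, on either strand) lay in 20 of the 32 members (62.5%), against 48.7% of all genes. These matches describe letters in a window and not binding.

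With retinoic acid, 2 immunoproteasome subunits, Irf1, Irf5, Rsad2 and tapasin were higher than in untreated cartilage, while Tap2 and Ifit2 were lower. The 6 higher members were 24% of the 25 tested, where 18.6% of all 14317 genes tested were called higher. The 2 lower members were 8%, where 18.1% of all genes were called lower. The median difference of the 25 was 0.18, and 0.02 over all kept probes. Retinoic acid and untreated arrays did not overlap for 4 of the 25 members (16%), where this held for 18.0% of all genes. A two-sided exact permutation test of 4 arrays against 4 gives 0.0286 for such a gene, the smallest p it can give.

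With IL-1α, Tap1, Rsad2, tapasin, Stat2 and B2m were higher than untreated and Ifit2 was lower. The 5 higher members were 20% of those tested against 15.1% of all genes, and the 1 lower member was 4% against 15.0% of all genes. The median difference of the 25 was 0.22, and 0.02 over all kept probes, and arrays did not overlap for 2 members (8%) against 14.3% of all genes. Between the 2 treatments, retinoic acid gave the higher level for 4 members (16%) against 16.1% of all genes, and the lower level for 3 (12%) against 16.4% of all genes. The median of this difference was -0.02, and -0.03 over all kept probes, and arrays did not overlap for 3 members (12%), against 18.9% of all genes. These shares lay near those over all genes, apart from lower calls against untreated, which were a smaller share. With retinoic acid against untreated, 51.6% of all called probes were higher, and scaling each array to a common median instead gave 65.6%, with a median difference of 0.14 over all probes. For retinoic acid against IL-1α these shares were 49.0% and 65.6%. No called member changed direction under that scaling, but some calls were lost. These were the lower calls of Tap2 and Ifit2 with retinoic acid against untreated, and the call of Stat2 with IL-1α against untreated. The call of Gbp6 with retinoic acid against IL-1α was lost as well. Both comparisons with untreated use the same 4 control arrays.

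**Figure D1:**
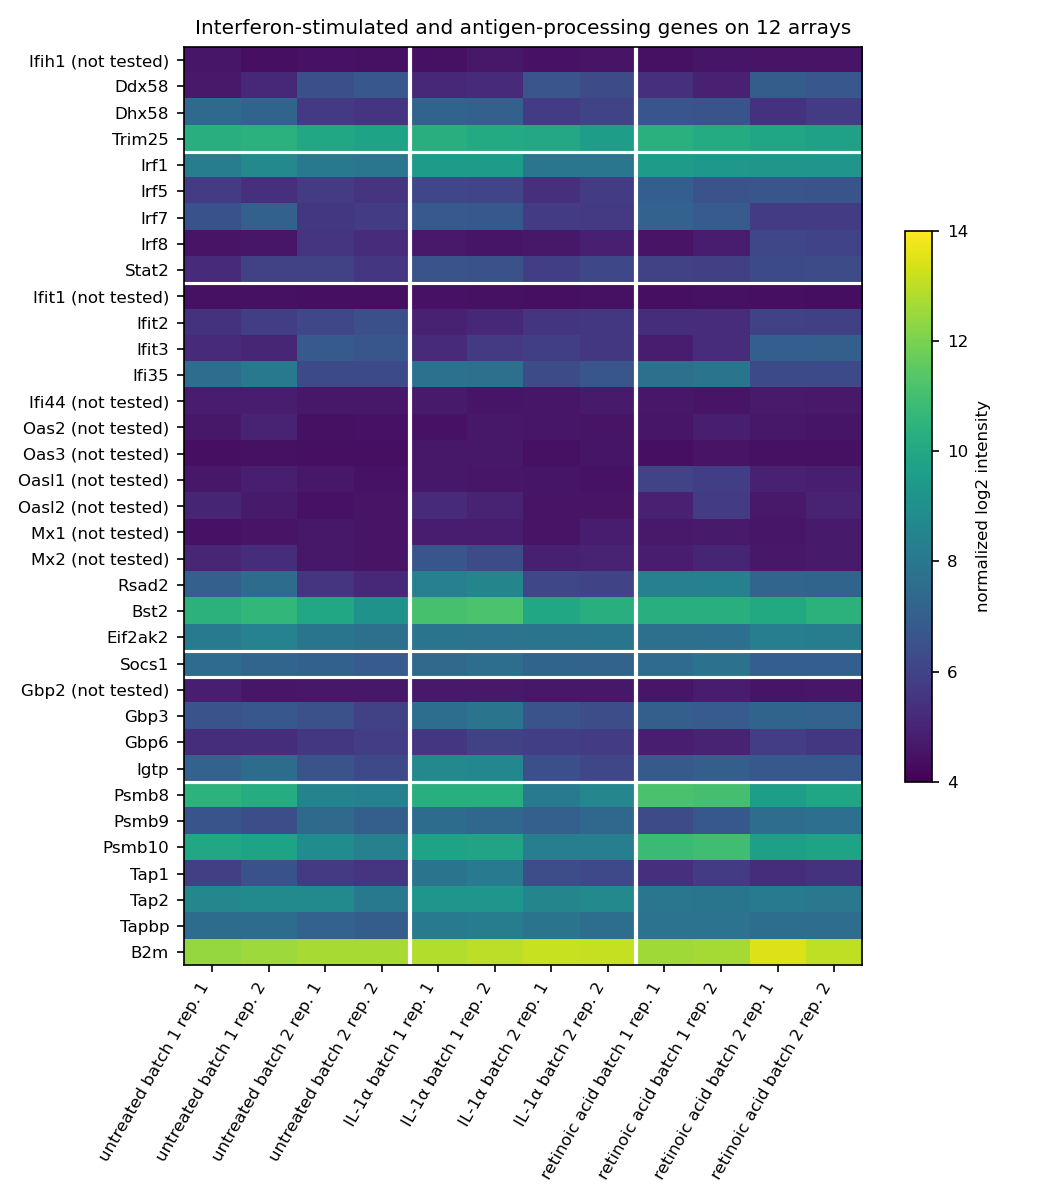
Normalized log2 intensity of the 35 members with a probe (rows, grouped by role between the horizontal white lines) on the 12 arrays (columns, grouped by treatment). Rows marked as not tested were detected on fewer than 4 arrays and stay dark in nearly every column; IL-1α batch 1 columns stand out for Igtp, Gbp3 and Tap1.

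The immunoproteasome subunits did not move together. Psmb8, which supplies one of the inducible catalytic sites of the immunoproteasome, lay at 10.47 and 10.21 in untreated batch 1, 8.51 and 8.41 in untreated batch 2, 10.25 and 10.26 with IL-1α in batch 1, 8.15 and 8.64 with IL-1α in batch 2, 11.12 and 11.05 with retinoic acid in batch 1, and 9.55 and 9.89 with retinoic acid in batch 2. Within each batch both retinoic acid arrays lay above all others, although batch 1 arrays of every treatment lay above untreated batch 2, so that the treatments overlapped when batches were pooled. The difference from untreated was 1.00 ± 0.15 (SE, adjusted p = 0.000153), and 0.75 in batch 1 and 1.26 in batch 2. The difference from IL-1α was 1.08 ± 0.15 (adjusted p = 9.04e-05). All 3 Psmb8 probes were higher with retinoic acid, by 1.00, 1.34 and 1.12. With IL-1α the difference from untreated was -0.07 ± 0.15 (adjusted p = 0.743).

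Psmb10, the subunit that replaces Psmb7 in the immunoproteasome, lay at 9.97, 9.81, 8.88 and 8.35 untreated (batch 1, then batch 2), at 9.82, 9.83, 8.29 and 8.28 with IL-1α, and at 10.81, 10.92, 9.63 and 9.80 with retinoic acid. Again the retinoic acid arrays were the highest of each batch. The difference from untreated was 1.04 ± 0.14 (adjusted p = 7.49e-05), nearly equal in batch 1 (0.98) and batch 2 (1.10), and the second Psmb10 probe gave 0.86. Against IL-1α the difference was 1.23 ± 0.14 (adjusted p = 1.7e-05).

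Psmb9, the remaining inducible subunit, followed another pattern. It lay at 6.61, 6.41, 7.44 and 7.03 untreated, at 7.52, 7.35, 7.07 and 7.38 with IL-1α, and at 6.28, 6.74, 7.56 and 7.64 with retinoic acid. No overall comparison passed the test: relative to untreated, retinoic acid gave 0.18 ± 0.24 (adjusted p = 0.602) and IL-1α 0.46 ± 0.24 (adjusted p = 0.169). The IL-1α arrays were above the other treatments in batch 1, and in batch 2 they overlapped the untreated arrays and lay below those with retinoic acid. Of the constitutive catalytic subunits, Psmb5 was higher with retinoic acid by 0.47 ± 0.13 (adjusted p = 0.0121) and with IL-1α by 0.41 ± 0.13 (adjusted p = 0.0284), and Psmb7 was higher with retinoic acid by 0.35 ± 0.12 (adjusted p = 0.0463).

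The peptide transporter genes were not among those higher with retinoic acid. Tap1, which forms the transporter together with Tap2, lay at 5.91, 6.50, 5.69 and 5.50 untreated, at 7.85, 8.07, 6.39 and 6.20 with IL-1α, and at 5.39, 5.73, 5.32 and 5.48 with retinoic acid. Every IL-1α array lay above every retinoic acid array, and the batch 1 IL-1α arrays stood highest. Tap1 was higher with IL-1α than untreated by 1.23 ± 0.25 (adjusted p = 0.00252) and lower with retinoic acid than with IL-1α, by -1.65 ± 0.25 (adjusted p = 0.000184). Retinoic acid against untreated gave -0.42 ± 0.25 (adjusted p = 0.204).

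Tap2 lay at 8.63, 8.80, 8.78 and 8.05 untreated, at 9.26, 9.27, 8.55 and 8.71 with IL-1α, and at 7.92, 7.89, 8.13 and 8.02 with retinoic acid. The retinoic acid arrays lay below every IL-1α array, and 1 untreated batch 2 array lay among them. The difference between retinoic acid and IL-1α was -0.96 ± 0.18 (adjusted p = 0.00109). Against untreated it was -0.57 ± 0.18 (adjusted p = 0.0235), a call that was lost when any one of 5 arrays was left out (adjusted p up to 0.0978), both batch 1 untreated, both batch 1 retinoic acid and the first batch 2 untreated array.

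Tapbp (tapasin), which bridges the transporter and the class I molecule, was higher with both agents. It lay at 7.54, 7.52, 7.16 and 6.96 untreated, at 8.17, 8.25, 7.86 and 7.60 with IL-1α, and at 7.79, 7.82, 7.61 and 7.56 with retinoic acid. The untreated arrays lay below those of either treatment with no overlap. The difference from untreated was 0.67 ± 0.11 with IL-1α (adjusted p = 0.000755) and 0.40 ± 0.11 with retinoic acid (adjusted p = 0.0146), the latter lost without the second batch 2 retinoic acid array (adjusted p = 0.0652). B2m, the light chain shared by class I molecules, lay at 12.40, 12.54, 12.70 and 12.71 untreated, at 12.83, 13.00, 13.16 and 13.14 with IL-1α, and at 12.56, 12.65, 13.46 and 13.06 with retinoic acid. All IL-1α arrays lay above the untreated ones, and the difference was 0.44 ± 0.13 (adjusted p = 0.022) and 0.44 within each batch. The call was lost when any one of 4 arrays was left out (adjusted p up to 0.079), both batch 1 IL-1α and both batch 2 untreated arrays. Retinoic acid gave 0.35 ± 0.13 (adjusted p = 0.0549), and a second B2m probe was detected on no array.

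**Figure D2:**
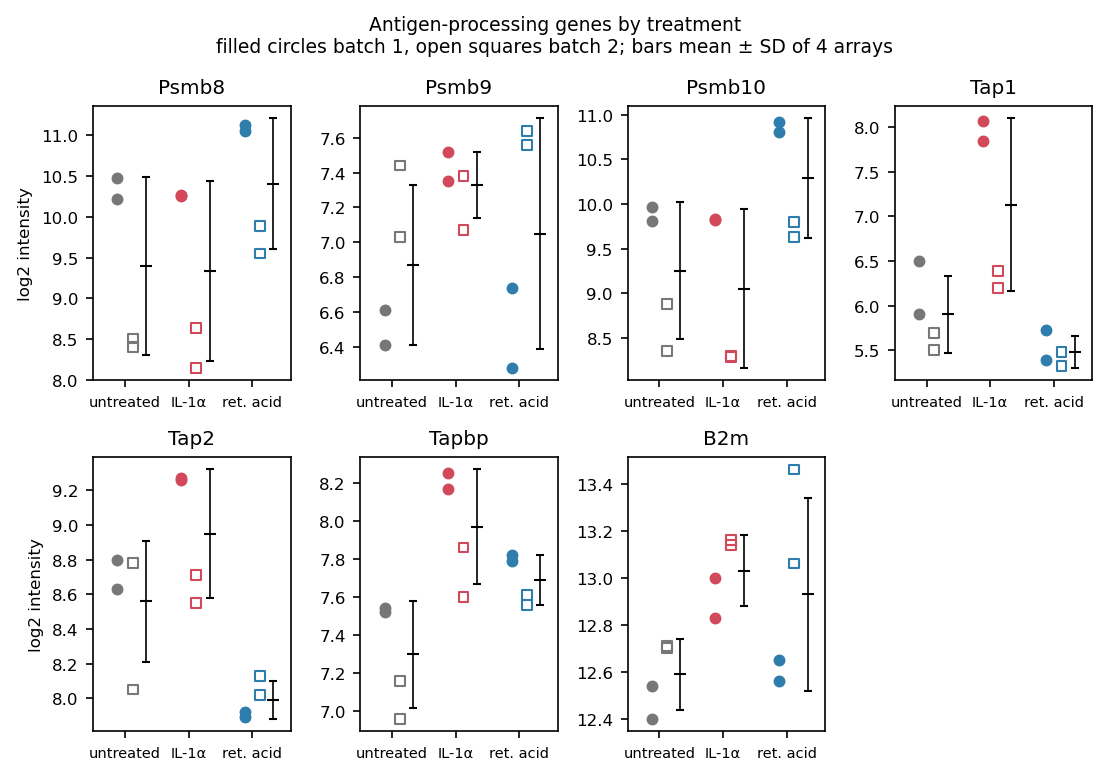
Normalized log2 intensity (vertical axes, each with its own range) of the 7 antigen-processing members by treatment, 1 point per array. Psmb8 and Psmb10 are highest with retinoic acid within each batch, Tap1 is highest with IL-1α and Tap2 lowest with retinoic acid, and Psmb9 changes order between the batches.

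The class I genes outside the set, from a list of 14 of which 9 could be tested, were called in part. With retinoic acid 4 were higher (44.4%, against 18.6% of all genes) and 2 lower (22.2%, against 18.1%) than untreated, and 3 were not called. With IL-1α 4 were higher (44.4%, against 15.1%) and 5 were not called. H2-Q7, the only gene of this list called higher with both agents, gave 1.45 in batch 1 and -0.08 in batch 2 with retinoic acid, and 1.16 and 0.35 with IL-1α. Tapbpl, a tapasin relative, was higher with IL-1α by 0.95 ± 0.14 (adjusted p = 0.000283) and gave 0.11 ± 0.14 with retinoic acid (adjusted p = 0.599). With retinoic acid, H2-T23, a non-classical class I heavy chain, was higher by 0.70 ± 0.12 (adjusted p = 0.000692) and Psme1, a subunit of the proteasome activator PA28, by 0.57 ± 0.11 (adjusted p = 0.00172), while Pdia3, a disulfide isomerase of the loading complex, was lower, by -0.67 ± 0.13 (adjusted p = 0.00128). Of the MHC class II genes, 4 of 5 tested were lower with retinoic acid (80%, against 18.1% of all genes). Among them were H2-DMa by -2.20 ± 0.16 (adjusted p = 2.17e-07) and H2-Ab1 by -1.51 ± 0.11 (adjusted p = 2.73e-07). With IL-1α these 2 were also lower (40%, against 15.0% of all genes). Higher with IL-1α (40%, against 15.1%) were Cd74, the invariant chain, by 0.92 ± 0.13 (adjusted p = 0.000207), and H2-Eb1. H2-Eb1 was detected on no retinoic acid array. Against untreated, retinoic acid gave -1.58 for it in batch 1 and -0.43 in batch 2 (adjusted p of the difference 0.00483).

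Among the interferon regulatory factors, Irf1 and Irf5 were about doubled by retinoic acid. Irf1, a transcription factor that binds the ISRE and is itself induced by interferon-γ, lay at 8.24, 8.72, 8.05 and 7.92 untreated, at 9.51, 9.49, 7.93 and 7.94 with IL-1α, and at 9.49, 9.35, 9.31 and 9.22 with retinoic acid. The retinoic acid arrays were all above the untreated ones, whereas the IL-1α arrays sat with retinoic acid in batch 1 and with untreated in batch 2. The difference from untreated was 1.11 ± 0.24 with retinoic acid (adjusted p = 0.00269) and 0.49 ± 0.24 with IL-1α (adjusted p = 0.144). A dimmer Irf1 probe gave 1.40 with retinoic acid (adjusted p = 0.000495) and 0.92 with IL-1α (adjusted p = 0.0118), so that the IL-1α call depended on the probe. Another probe, detected on 5 arrays, gave 0.54 with retinoic acid (adjusted p = 0.0578).

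Irf5, which acts downstream of Toll-like receptors in myeloid cells, lay at 5.76, 5.40, 5.75 and 5.52 untreated, at 6.13, 6.08, 5.36 and 5.74 with IL-1α, and at 6.97, 6.56, 6.67 and 6.61 with retinoic acid. The retinoic acid arrays lay above all 8 others. The difference was 1.09 ± 0.15 from untreated (adjusted p = 0.000102) and 0.87 ± 0.15 from IL-1α (adjusted p = 0.000668). Macrophage markers were also unequal between treatments. With retinoic acid 4 of the 6 tested (66.7%, against 18.6% of all genes) were higher than untreated and none lower. With IL-1α 2 were higher (33.3%, against 15.1% of all genes), among them Cd14 by 2.73 (adjusted p = 1.32e-07). Another 2 were lower (33.3%, against 15.0%), C1qa by -1.49 (adjusted p = 9.59e-05) and Emr1 by -0.78 (adjusted p = 0.00682), so that the list mean hides opposite changes. Emr1 and Mpeg1 were detected on no batch 1 array, so their batch 1 values lie at background. The mean level of the list was 6.88 to 7.44 untreated, 7.25 to 7.42 with IL-1α and 7.44 to 8.18 with retinoic acid. Of the 5 neutrophil markers 3 (Mpo, Ngp and Camp) were lower with retinoic acid than untreated (60%, against 18.1% of all genes, list median -0.73). The same 3 were lower than with IL-1α (60%, against 16.4%, list median -1.06), and none was called with IL-1α against untreated. Retinoic acid against untreated depended on batch for 4 of the 5 (80%, against 2.70% of all genes). S100a9 averaged 9.45 untreated and 7.45 with retinoic acid in batch 1, but 10.95 and 11.50 in batch 2. S100a8 likewise averaged 12.74 and 11.63 in batch 1, but 12.33 and 13.07 in batch 2. Of the 7 T and NK cell markers, 5, including Cd3e, Cd3g and Cd8a, were detected on no array. Nkg7, a granule protein of cytotoxic lymphocytes, was detected on all 4 IL-1α arrays, on the 2 untreated arrays of batch 1 and on no retinoic acid array, and was lower with retinoic acid than untreated (adjusted p = 0.0185) and than IL-1α (adjusted p = 0.00209). The part of these markers, and of the lower cartilage markers, in the differences of Irf5 and of the other members was not tested.

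Stat2, part of the complex that binds the ISRE, was higher with IL-1α by 0.57 ± 0.20 (adjusted p = 0.0483), with overlapping arrays that ran from 5.23 to 5.99 untreated and from 5.87 to 6.55 with IL-1α. That call was lost under 14 of 21 alternatives (adjusted p up to 0.237), among them the omission of any one of 8 arrays. Irf8, a myeloid regulator, was higher under retinoic acid than under IL-1α, by 0.66 ± 0.22 (adjusted p = 0.0361), under a probe detected on no IL-1α array. Of its retinoic acid arrays the 2 of batch 2 were detected, at 6.14 and 6.03. No fold is given for it, since the other retinoic acid arrays were not detected either, and the call was lost when any one of 6 arrays was left out (adjusted p up to 0.154). Irf7, the factor that amplifies type I interferon, gave 0.14 ± 0.14 with retinoic acid (adjusted p = 0.466) and 0.00 ± 0.14 with IL-1α (adjusted p = 0.988). The lowest adjusted p of Irf2 and Irf3 in any comparison was 0.0892.

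Rsad2 (viperin), an antiviral enzyme, had the largest difference from untreated of the tested members. It lay at 7.08, 7.55, 5.55 and 5.17 untreated, at 8.34, 8.60, 6.11 and 6.07 with IL-1α, and at 8.34, 8.40, 7.25 and 7.21 with retinoic acid. Treated arrays of either kind lay above the untreated arrays of their own batch, although the batches overlapped. The difference was 1.46 ± 0.21 with retinoic acid (adjusted p = 0.000128) and 0.94 ± 0.21 with IL-1α (adjusted p = 0.00492). Ifit2, another antiviral effector, was lower with IL-1α by -0.69 ± 0.12 (adjusted p = 0.000998), at 5.46, 5.87, 6.12 and 6.43 untreated and 4.90, 5.10, 5.52 and 5.61 with IL-1α. Its probe was detected on no treated array of batch 1, and its lower call with retinoic acid, -0.36 ± 0.12 (adjusted p = 0.0326), was lost when any one of 4 arrays was left out (adjusted p up to 0.126).

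Over both batches the other antiviral members were not called or were not detected on enough arrays to be tested. Bst2 (tetherin), a membrane protein that retains budding virus, lay at 10.44, 10.63, 9.94 and 9.15 untreated, at 11.09, 11.16, 9.96 and 10.26 with IL-1α, and at 10.25, 10.29, 10.06 and 10.43 with retinoic acid. The IL-1α arrays were the highest in batch 1 only, and neither treatment passed the test (adjusted p = 0.0744 with IL-1α and 0.496 with retinoic acid). Ifi35 gave -0.02 and 0.09, and Eif2ak2, the kinase PKR, gave -0.06 and -0.18, with retinoic acid and IL-1α in turn. Ifih1, Ifit1, Ifi44, Oas2, Oas3, Mx1 and Gbp2, which are among the genes most used to recognise an interferon response, were detected on no array, and each lay between 4.38 and 4.99. Signal at that level cannot be told from background, so these probes do not show that the transcripts were absent. The lowest detected value on an array was 4.86 to 5.48. Oasl1, Oasl2 and Mx2 were detected on 2, 1 and 3 arrays in turn and were not tested.

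Among the RNA sensors and their partners, limma called none of the 3 tested members in any comparison. Before adjustment Dhx58 alone was below 0.05, with retinoic acid against both untreated and IL-1α. Trim25, the ubiquitin ligase that activates RIG-I, lay at 10.27, 10.37, 9.98 and 9.80 untreated, at 10.28, 10.12, 10.04 and 9.58 with IL-1α, and at 10.34, 10.15, 9.88 and 9.73 with retinoic acid, overlapping throughout. Dhx58, also known as LGP2, lay at 7.42, 7.24, 5.68 and 5.56 untreated, at 7.24, 7.06, 5.79 and 6.07 with IL-1α, and at 6.69, 6.58, 5.48 and 5.75 with retinoic acid. Its batch 1 arrays all lay above its batch 2 arrays, and retinoic acid against IL-1α gave -0.41 ± 0.15 (adjusted p = 0.0522). A second Dhx58 probe, also detected on all 12 arrays, gave 0.10 for retinoic acid against IL-1α (adjusted p = 0.626) and 0.15 against untreated (adjusted p = 0.405), where the brighter probe gave -0.35 (adjusted p = 0.0875). Ddx58 (RIG-I) was detected on the 6 batch 2 arrays and on none of batch 1. Socs1, the inhibitor that dampens Janus kinase signalling, lay between 6.86 and 7.75 in all arrays and gave 0.13 ± 0.12 with retinoic acid (adjusted p = 0.463) and 0.19 ± 0.12 with IL-1α (adjusted p = 0.269). A second Socs1 probe was lower with retinoic acid than with IL-1α, by -0.41 (adjusted p = 0.0113), where the brighter probe gave -0.06 (adjusted p = 0.748).

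**Figure D3:**
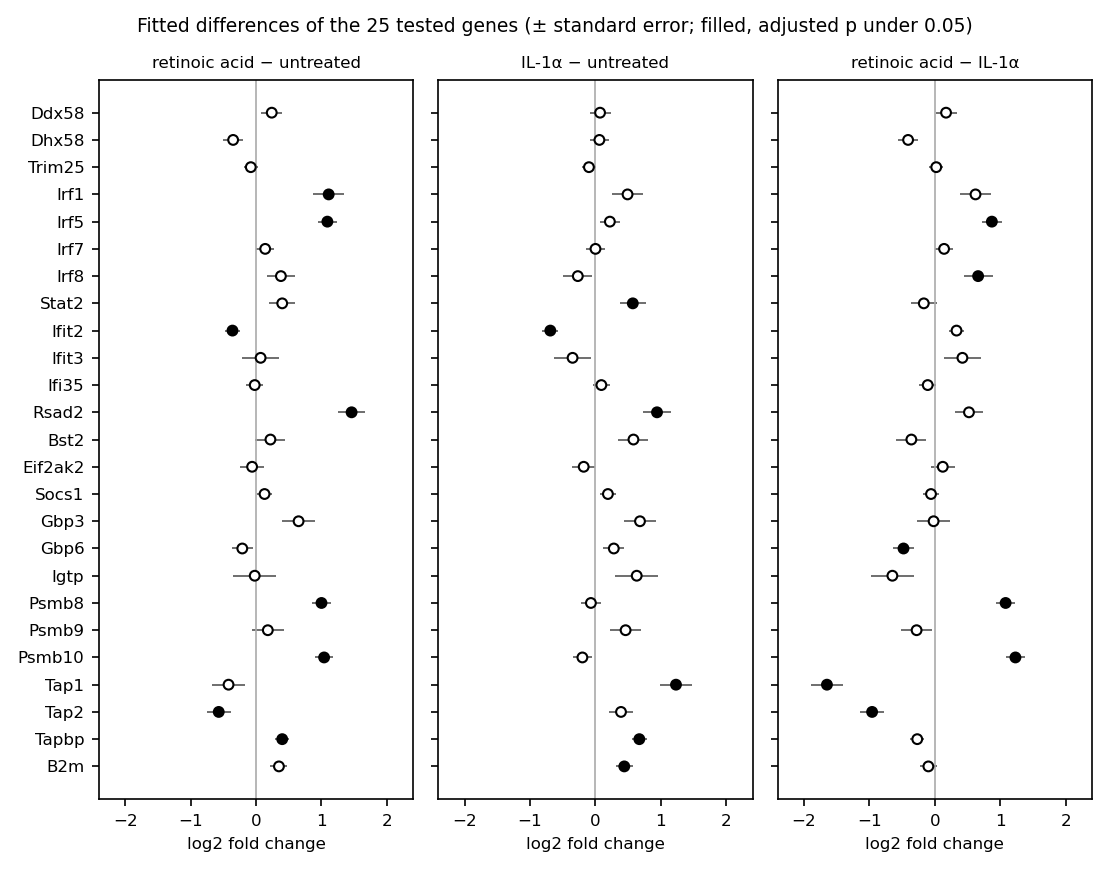
Log2 fold changes of the 25 tested members in the 3 comparisons (horizontal axes), with bars for the standard error and filled points for an adjusted p below 0.05. Filled points lie on both sides of 0 in each panel, with Rsad2 furthest to the right for retinoic acid against untreated, Tap1 for IL-1α against untreated, and Tap1 furthest to the left for retinoic acid against IL-1α.

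**Figure D4:**
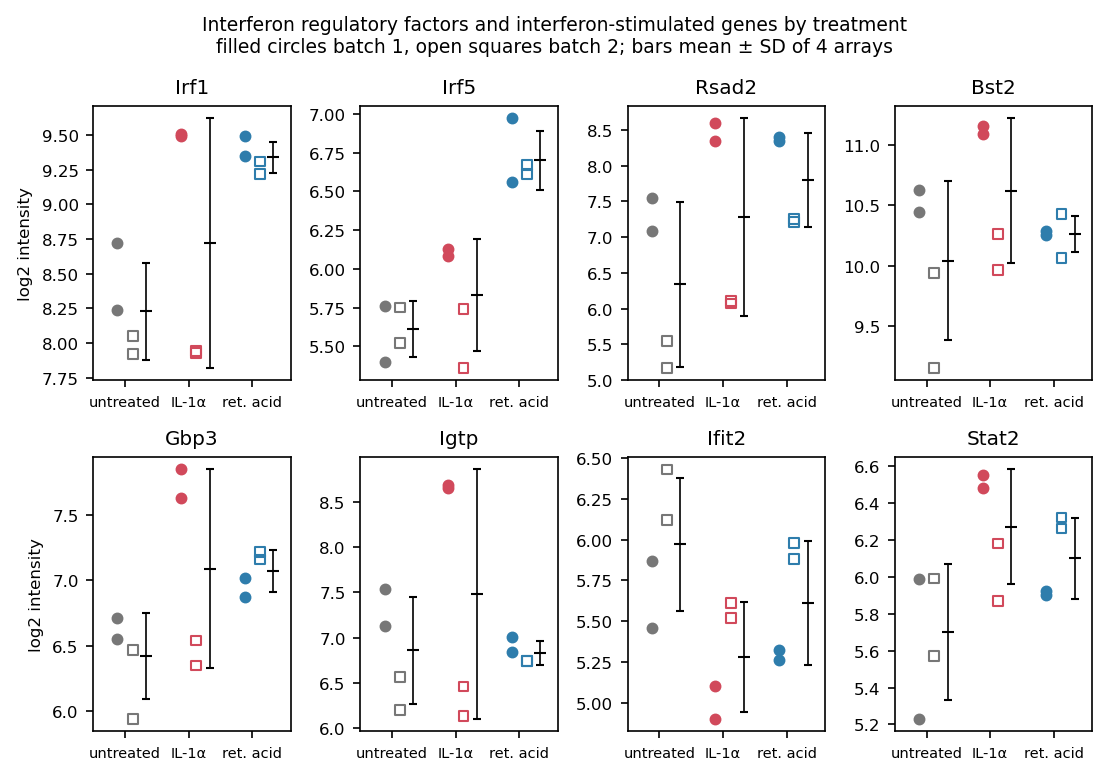
Normalized log2 intensity (vertical axes, each with its own range) of 8 interferon regulatory factors and interferon-stimulated members by treatment, 1 point per array. The batch 1 IL-1α arrays of Irf1, Gbp3 and Igtp lie far above those of batch 2, while their retinoic acid arrays of both batches lie close together.

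The difference between treatments depended on the batch for several members, and batch and mouse line cannot be told apart. The contrast of retinoic acid with IL-1α depended on batch for 9 of the 25 members (36%), where 8.91% of all genes passed that test, and for 6 of the 19 detected on all arrays (31.6%). In all 9 the value was more positive in batch 2. Some markers of other cells moved the same way. This contrast depended on batch for 4 of 6 macrophage markers (66.7%), Emr1, Csf1r, Mpeg1 and C1qa. It did so for 4 of 5 neutrophil markers (80%), S100a8, S100a9, Mpo and Ngp, and all 8 were more positive in batch 2. Emr1 and Mpeg1 were detected on no batch 1 array and Csf1r on 4 arrays in all, which limits these calls. The contrast depended on batch for none of 7 chondrocyte, 3 osteoclast and 3 plasmacytoid dendritic cell markers. The plasmacytoid list includes Bst2, which is itself a member and was measured by the same probe. Its batch difference was 0.99 ± 0.31 (adjusted p = 0.0589). The contrast did depend on batch for 1 of 4 endothelial, 1 of 2 T and NK cell and 1 of 1 B cell markers. The part of all these markers in the members' dependence was not tested. IL-1α against untreated depended on batch for 4 members (16%), where 4.57% of all genes did, and all 4 were more negative in batch 2. Retinoic acid against untreated depended on batch for Eif2ak2 alone (4%), where 2.70% of all genes did. It gave -0.57 in batch 1 and 0.45 in batch 2, a difference of 1.02 ± 0.21 (adjusted p = 0.0142) that was lost when any one of 5 arrays was left out (adjusted p up to 0.0701).

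Igtp, an interferon-γ-inducible GTPase of intracellular defence, showed the largest dependence. It lay at 7.13, 7.54, 6.56 and 6.20 untreated, at 8.69, 8.66, 6.46 and 6.13 with IL-1α, and at 6.84, 7.01, 6.74 and 6.74 with retinoic acid. IL-1α against untreated was 1.34 in batch 1 and -0.09 in batch 2, a difference of -1.43 ± 0.25 (adjusted p = 0.00628). For retinoic acid against IL-1α the batch difference was 2.20 ± 0.25 (adjusted p = 0.000108), past the threshold with every array left out in turn. Gbp3, a guanylate-binding GTPase, lay at 6.55, 6.71, 6.47 and 5.94 untreated, at 7.63, 7.85, 6.54 and 6.35 with IL-1α, and at 7.02, 6.87, 7.22 and 7.16 with retinoic acid. The batch 1 IL-1α arrays were again apart from the rest. Its retinoic acid arrays lay above all untreated ones, although the fitted 0.65 ± 0.25 missed the threshold (adjusted p = 0.0562). The batch difference for retinoic acid against IL-1α was 1.54 ± 0.25 (adjusted p = 0.00154).

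For Irf1, IL-1α against untreated was 1.02 in batch 1 and -0.05 in batch 2 (difference -1.07 ± 0.23, adjusted p = 0.0164). For Tap1 it was 1.76 and 0.70 (difference -1.06 ± 0.27, adjusted p = 0.0391), so that Tap1 stayed above untreated in batch 2, where Irf1 and Igtp lay near it. These calls for Irf1 and Tap1 were lost when any one of 4 and of 6 arrays, respectively, was left out (adjusted p up to 0.0701 and 0.163). For retinoic acid against IL-1α the batch differences of Irf1 (1.41 ± 0.23, adjusted p = 0.00161) and Tap1 (1.51 ± 0.27, adjusted p = 0.0036) were kept with every array left out. Psmb9 and Rsad2 also differed in that comparison, by 1.30 ± 0.27 (adjusted p = 0.00772) and 1.23 ± 0.25 (adjusted p = 0.00749). Psmb9 and Tap1, the pair that share a promoter region, differed from untreated by 0.92 and 1.76 with IL-1α in batch 1, and by -0.01 and 0.70 in batch 2.

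Gbp6, another guanylate-binding GTPase, was lower with retinoic acid than with IL-1α, by -0.48 ± 0.16 (adjusted p = 0.0328), a call lost when any one of 4 arrays was left out (adjusted p up to 0.143), and its batch difference of 0.76 (adjusted p = 0.0448) was lost without any one of 7. Ifit3 and Irf8 passed the batch test with probes that were near or below detection in batch 1. Ifit3 lay at 5.18, 5.06, 6.82 and 6.68 untreated, at 5.18, 5.69, 5.87 and 5.62 with IL-1α, and at 4.78, 5.25, 6.98 and 7.02 with retinoic acid. In batch 2 the IL-1α arrays were the lowest, with -1.01 against untreated, and in batch 1 the difference was 0.32. With the probe used for each, Tapbp, Psmb8 and B2m gave nearly the same IL-1α difference in both batches, 0.68 and 0.67, -0.08 and -0.07, and 0.44 and 0.44. For Psmb8 this depended on the probe. A dimmer probe, also detected on all 12 arrays, averaged 8.63 untreated and 9.04 with IL-1α in batch 1, but 8.16 and 7.88 in batch 2. The dimmest averaged 7.1 and 7.4 in batch 1, and 5.71 and 5.93 in batch 2.

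**Figure D5:**
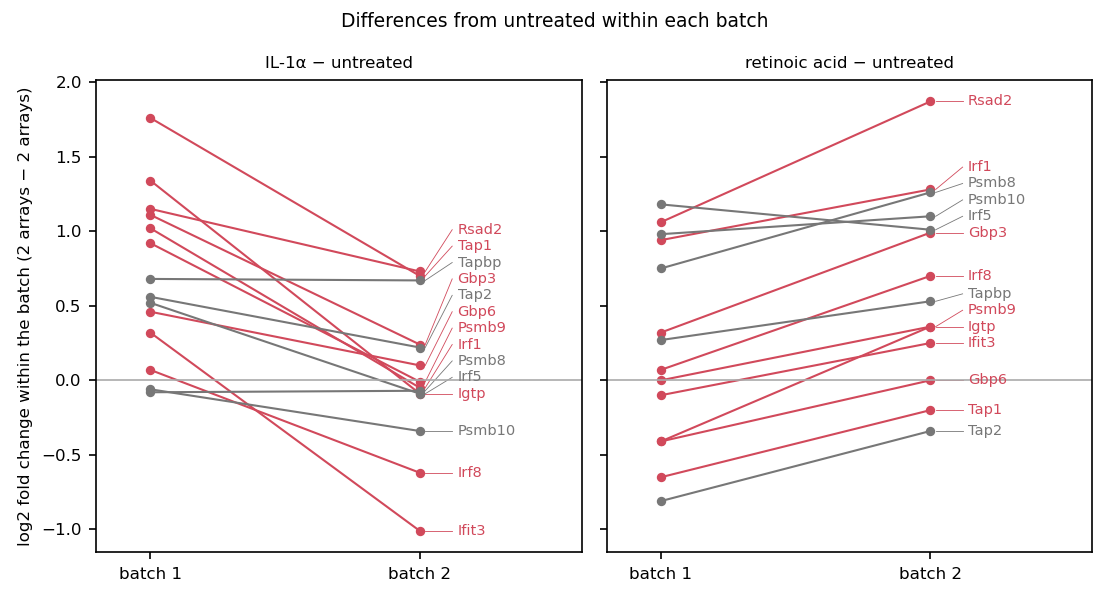
Log2 fold change from untreated within batch 1 and within batch 2 (2 arrays against 2, joined by a line) for IL-1α (left) and retinoic acid (right). Red marks the 9 members whose difference between retinoic acid and IL-1α depended on batch, and grey marks 5 others for comparison. The red lines fall from batch 1 to batch 2 with IL-1α and rise with retinoic acid. Choosing members by that difference favours such opposed slopes, and the rise with retinoic acid was not called for any of them. The grey lines also rise with retinoic acid, apart from Irf5.

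The genes that carry the interferon signal were not alike in their response. Of 5 interferon genes with a probe (Ifnb1, Ifng, Ifna2, Ifna4 and Ifnk), none was detected on any array. Ifngr1, the ligand-binding chain of the interferon-γ receptor, lay at 7.98, 8.23, 8.47 and 7.69 untreated, at 8.99, 8.89, 8.53 and 8.64 with IL-1α, and at 10.17, 10.16, 10.31 and 10.39 with retinoic acid. The 3 treatments did not overlap. Retinoic acid raised it by 2.17 ± 0.17 (adjusted p = 4.2e-07) and IL-1α by 0.67 ± 0.17 (adjusted p = 0.00862). Ifnar2, a chain of the type I receptor, was higher with retinoic acid by 0.67 ± 0.12 (adjusted p = 0.000905) and with IL-1α by 0.61 ± 0.12 (adjusted p = 0.00269). Jak1 was lower with both, by -0.89 ± 0.15 and -1.12 ± 0.15, under a probe that was detected on 1 retinoic acid array and on no IL-1α array, so that both values are against signal near background. With IL-1α it was at least 1.58-fold below untreated.

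Among the genes of ISG15 conjugation and feedback, Ube1l, the ISG15-activating enzyme, was higher with retinoic acid by 1.44 ± 0.12 (adjusted p = 1.19e-06). Socs3, a feedback inhibitor, was higher with retinoic acid by 0.99 ± 0.14 (adjusted p = 8.57e-05) and with IL-1α by 1.55 ± 0.14 (adjusted p = 3.85e-06). Ptpn2, a phosphatase of Janus kinases and STATs, was higher with IL-1α by 1.80 ± 0.25 (adjusted p = 0.000158), and by more in batch 1 (2.52) than in batch 2 (1.07, adjusted p of the difference 0.00417). Ikbke, a kinase upstream of interferon regulatory factors, was higher with IL-1α by 1.35 ± 0.13 (adjusted p = 1.28e-05), at 1.10 and 1.59 within the batches. Traf3, an adaptor of that pathway, was higher with IL-1α by 0.59 ± 0.11 (adjusted p = 0.00153).

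Of 40 other interferon-stimulated genes listed, 22 could be tested, and 4 were higher (18.2%) and 3 lower (13.6%) with retinoic acid, 3 higher (13.6%) and 2 lower (9.09%) with IL-1α. These shares were near or below those over all genes, 18.6% and 18.1% with retinoic acid and 15.1% and 15.0% with IL-1α. Isg20, an exonuclease, fell with retinoic acid from 7.51, 7.62, 8.06 and 8.68 to 5.82, 5.95, 6.06 and 5.90, and all retinoic acid arrays lay below all others. Its difference was -2.04 ± 0.16 (adjusted p = 7.14e-07). Ly6e was higher with retinoic acid by 0.95 ± 0.13 (adjusted p = 0.000121), Ifitm1, a membrane restriction factor, was higher with retinoic acid by 0.70 ± 0.13 and with IL-1α by 0.85 ± 0.13, and Tor3a was higher with IL-1α by 1.00 ± 0.17 (adjusted p = 0.000931). Cxcl9, an interferon-γ-induced chemokine named here after its values were seen, was detected on the 4 IL-1α arrays alone. It lay at 9.56 and 9.43 in batch 1 and at 5.08 and 5.09 in batch 2. Those arrays alone took it past the detection filter, so no fold or p-value is given, although it is among the 3 genes counted higher. IL-1α against untreated gave 4.49 in batch 1 and 0.3 in batch 2. The lowest detected values on the batch 2 IL-1α arrays were 5.07 and 5.02. Over all pathway lists 59 genes could be tested, and 17 were higher (28.8%) and 11 lower (18.6%) with retinoic acid, 19 higher (32.2%) and 6 lower (10.2%) with IL-1α.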

How the data were processed

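RNA of femoral head explants was measured on 12 one-colour Illumina bead arrays. The deposited table gives a probe's summarized intensity on each array, not normalized by the authors, and a deposited detection score, where 1 minus the score was read as the detection p (detected below 0.05). No column was left without a sample. Per the labels, limma was used by the authors. Here R 4.3.3 and limma 3.58.1 were used. Intensities were background-corrected and quantile-normalized with neqc (offset 16), which gives log2 values, and 18200 of 46632 probes detected on at least 4 arrays were kept. The fit (lmFit, eBayes, Benjamini-Hochberg over all kept probes) had treatment and a 4-level factor for batch and replicate number, as in the study's methods, and a second fit had treatment by batch. A gene was its brightest kept probe.

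The members and the lists were chosen with earlier results of these data known. Array values are given for members called with a log2 fold change of at least 1 in size, for the brightest and the most changed member of each role, and for those whose response differed between batches or between probes; pathway genes are the up to 4 of lowest adjusted p in a list. Same-numbered arrays of a batch deviated from their treatment means with correlations of 0.00266 to 0.062 in batch 1 and -0.108 to 0.391 in batch 2, which does not show that the numbers pair mice; the block for batch and replicate number was kept as designed, and fits without it are given as alternatives. The fits were checked on simulated data. Promoters came from RefSeq (GRCm38.p6), and 7 members had no entry. The number of arrays limits the precision. Alternatives were background correction, scaling, offset, filter, covariates, probe choice and leaving out each array. Some pathway genes are not reported here by name.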

Additional observations from a re-analysis of the deposited data

Results flagged for a closer look

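The effect of treatment differed between batch 1 and batch 2, by the test of treatment by batch, in 14 member comparisons; all values here are batch 2 minus batch 1 of a log2 fold change. For retinoic acid against IL-1α they were 1.41 for Irf1, 1.32 for Irf8, 1.68 for Ifit3, 1.23 for Rsad2, 1.54 for Gbp3, 0.76 for Gbp6, 2.20 for Igtp, 1.30 for Psmb9 and 1.51 for Tap1. For IL-1α against untreated they were -1.07 for Irf1, -1.32 for Ifit3, -1.43 for Igtp and -1.06 for Tap1, and for retinoic acid against untreated 1.02 for Eif2ak2. Over the 25 tested members the median of this batch difference was 0.53, -0.34 and 0.36 in the 3 comparisons, against -0.02, 0.03 and 0.02 over all genes. Batch and mouse line cannot be told apart.

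Signal above that of the untreated arrays appeared in 3 members detected on too few arrays to be tested. Oasl1, a relative of the oligoadenylate synthetases, was detected on the batch 1 retinoic acid arrays, at 6.06 and 5.85, while a second Oasl1 probe was detected on no array. Oasl2 was detected on 1 batch 1 retinoic acid array, at 5.74. Mx2, an antiviral GTPase, was detected on both batch 1 IL-1α arrays, at 6.66 and 6.30, and on 1 untreated array. Of 75 groups of 4 arrays examined, none had an array outlying by Dixon's criterion.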

How the results depend on the processing

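Of 35 member results followed, 13 stayed past the threshold under every alternative and 23 when each array was left out in turn. The count of called members depended most on the covariates: with treatment alone and no replicate block, limma called 1 member with retinoic acid against untreated (8 with the block for batch and replicate number), 0 with IL-1α against untreated (6 with it, and 5 at an unadjusted p below 0.05), and 3 with retinoic acid against IL-1α (7 with it), and most of the distance between batches then counts as spread. With batch alone as covariate, the counts were 10, 8 and 10. Leaving out 1 array gave 4 to 11 calls with IL-1α against untreated, the highest without the first batch 2 IL-1α array. For treatment by batch, retinoic acid against untreated (1 call) gave 0 with median scaling, 2 with no filter and 0 to 4 without 1 array, the highest without the first batch 2 untreated array; IL-1α against untreated (4 calls) gave 2 with no filter and 1 to 8 without 1 array, the highest without the second batch 2 untreated array. With the replicate block added to that model, an alternative chosen after seeing the data, the counts were 1, 5 and 9. In batch 1 alone, Irf8 with retinoic acid against IL-1α gave 0.00, with no detected array in either group, so its positive value rested on batch 2. Dim probes set the depth limit: the lowest detected value was 5.29 to 5.48 on batch 1 arrays and 4.86 to 5.07 on those of batch 2.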
